A study of Homo sapiens with 12 samples.

Results

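The change in gene expression that the mantle cell lymphoma lines Rec-1 and SP-49 had in common after a gamma-secretase inhibitor was measured on 8 of the 12 arrays of the series. These were the 4 arrays of inhibitor-treated cells (GSI), 2 for each line, and the 4 arrays of mock-treated cells (Mock), again 2 for each line. A single GSI effect was fitted for both lines, with the line as a covariate, so that constant differences between Rec-1 and SP-49 were removed. The 4 arrays of another line, Mino, were left out of that fit and were used to read the same genes outside it.

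All 3 are established human mantle cell lymphoma lines. GSI cells were grown for 24 h with 1 µM compound E, a small-molecule inhibitor of gamma-secretase, and Mock cells for 24 h with 0.1% DMSO, the solvent. The medium held 10% serum for Rec-1 and SP-49 and 15% for Mino. RNA was read on Affymetrix expression arrays with 54675 probe sets. Each level below is a log2 value as deposited, for the probe set that represents the gene, and a change is the GSI level minus the Mock level.

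Mantle cell lymphoma is a cancer of mature B cells that is driven by cyclin D1, and some cases carry activating mutations of a Notch receptor. Notch receptors are cut first by an ADAM protease and then by gamma-secretase, which frees the intracellular domain to enter the nucleus, bind the DNA-binding protein RBPJ and switch on target genes such as those of the HES and HEY repressor families. A gamma-secretase inhibitor stops the second cut. MYC, a transcription factor that raises the expression of genes for ribosome assembly, nucleotide synthesis and energy metabolism, is a known Notch target in lymphoid cancers.

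All 7 measured mantle cell and B-cell markers were above the median of all probe sets (1.99) in every Rec-1 and SP-49 group, although CD5 was low, at 2.23 to 2.96. Also above it in these groups were 3 to 5 of 8 T-cell, 3 to 4 of 7 NK-cell and 4 to 5 of 7 stromal markers. So were 3 to 5 of 6 epithelial and 0 to 1 of 6 myeloid markers. A level above this median is therefore not particular to the B-cell markers. None of the measured epithelial, stromal, myeloid, NK-cell and T-cell markers passed the limma test of the GSI effect, and the median changes of these lists ran from -0.08 to 0.10. The summed log2 level of the 6 epithelial markers was 13.88 to 14.34 on the Mock and 12.23 to 12.49 on the GSI arrays of SP-49, and 12.04 to 13.25 against 12.17 to 12.35 in Rec-1. CDH1, at 3.99 and 3.13 against 1.84 and 1.82 in SP-49 and at 1.54 and 1.13 against 1.15 and 1.09 in Rec-1, had a common change of -0.97 (limma adjusted p = 0.1592, and under 0.05 with 4 group means). The part of this move in the results below was not tested. Arrays of the same group correlated at r = 0.984 to 0.995 over all probe sets, and arrays of different lines at 0.932 to 0.946. The second GSI array of each line had the narrowest spread over probe sets, with an SD of 1.949 in Rec-1 and 1.996 in SP-49 against 2.012 to 2.051 on the other Rec-1 and SP-49 arrays. In Rec-1 the 3′ minus 5′ difference of the GAPDH control probe sets, a measure of RNA degradation, was 0.593 and 0.488 on the GSI arrays and 0.413 and 0.367 on the Mock arrays. In SP-49 it was 0.345 and 0.444 against 0.350 and 0.336, and the same difference for ACTB overlapped between groups, at 2.285 and 1.918 (GSI) and 1.999 and 1.825 (Mock) for Rec-1, then 2.302 and 2.163 (GSI) and 2.294 and 2.357 (Mock) for SP-49. The part of these array features in the GSI effect was not tested.

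Of 19775 genes, 192 passed the test of the common GSI effect (0.971% of genes, limma with a Benjamini-Hochberg adjusted p under 0.05). Falls outnumbered rises, with 161 genes lower (0.814%) and 31 higher (0.157%) after the inhibitor. At an unadjusted p under 0.05 there were 2956 genes (14.9%). The split moved with scaling: after a further quantile normalization 100 genes were lower (0.506%) and 53 higher (0.268%), so that falls made up 65.4% of the calls in place of 83.9%, and all 192 genes kept their direction. The p-values measure the spread between these arrays, which may be technical, since nothing in the sources used here says whether replicates were separate cultures.

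The 161 falls had a median change of -0.75, a 1.69-fold reduction, and ranged from -3.66 to -0.45, with 35 genes lower by at least 2-fold. The 31 rises had a median change of 0.70 (1.63-fold) and a range of 0.47 to 1.19, with 6 genes higher by at least 2-fold. For each of the 192 genes both GSI arrays lay beyond both Mock arrays in each line taken alone. Over all genes, 8.77% had their GSI arrays below their Mock arrays in both lines and 5.29% had them above. The changes were larger in Rec-1 than in SP-49 for 133 of the falls and 25 of the rises, with median changes of -0.89 and -0.61 for the falls and 0.87 and 0.58 for the rises. These lower and higher values describe genes that the test had chosen.

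**Figure D1:**
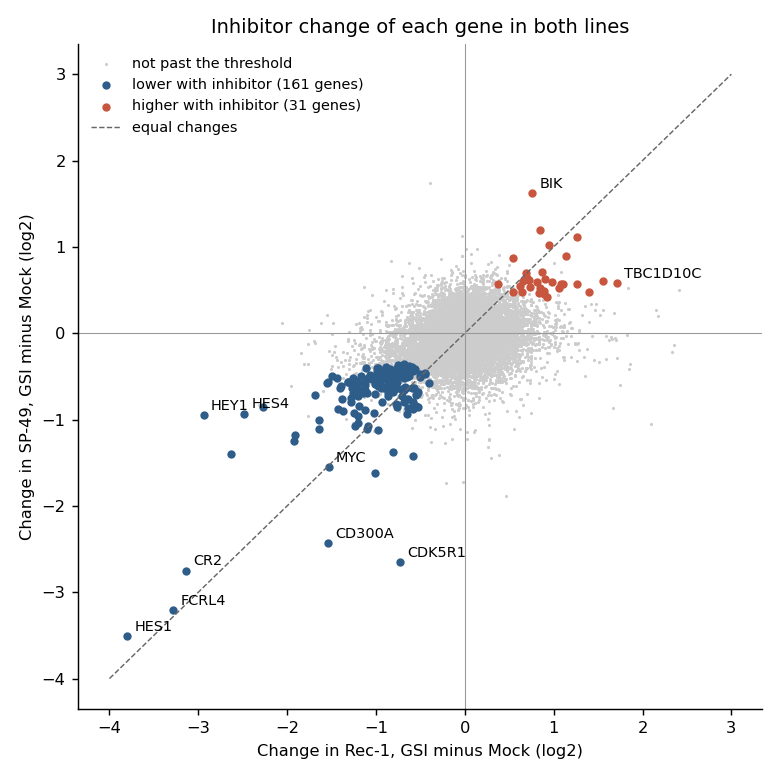
Each point is a gene, with its change (GSI minus Mock, log2) in Rec-1 on the horizontal axis and in SP-49 on the vertical axis. Blue and red points are the 161 genes that passed the test as lower and the 31 as higher, grey points are all other genes, and the dashed line marks equal changes. HES1, FCRL4 and CR2 stand alone at the lower left, with changes from -3.80 to -2.75 in both lines.

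In simulated data of this design, 92% of changes of 1 on the log2 scale and 15% of changes of 0.5 were recovered. The simulation gave both lines the same change and independent noise, without line differences or array features. Recovery in the real data may therefore be lower. The count of 192 became 10 without the first and 15 without the second Mock array of Rec-1, 18 and 28 without those of SP-49, 116 and 77 without the GSI arrays of Rec-1, and 261 and 31 without those of SP-49. Without both second GSI arrays 11 genes were lower (0.0556%) and 4 higher (0.0202%). In each of these fits all 192 genes kept their direction. Passing in every fit that left out 1 array were the falls of HES1, FCRL4, CR2, CD300A, MYC, HK2, BCAT1 and FYN and the rise of RASSF6, 9 genes in all. Every other call named below was lost in at least 1 of these 8 fits.

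Of 16 measured Notch target genes, 6 fell (37.5%, against 0.814% of all genes), none rose and 10 did not pass. The falls were those of HES1, HES4, HEY1, NRARP, MYC and CR2, and the median change of the list was -0.36 against 0.00 over all genes. Without both second GSI arrays 3 of the 16 were called, and 3 to 6 when 1 array was left out. The promoters of HES1 and HES4, which encode repressors of the HES family, are printed because both genes fell and both hold the RBPJ motif searched for, GTGGGAA on either strand. The 150 bases before each RefSeq start site are given on the gene's strand, with the motif in capitals, from chr3:194135998-194136147 (plus strand) for HES1 and chr1:1000098-1000247 (minus strand) for HES4 in GRCh38.p14.
HES1: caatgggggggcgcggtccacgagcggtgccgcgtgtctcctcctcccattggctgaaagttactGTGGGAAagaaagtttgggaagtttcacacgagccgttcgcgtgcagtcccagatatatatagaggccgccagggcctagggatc
HES4: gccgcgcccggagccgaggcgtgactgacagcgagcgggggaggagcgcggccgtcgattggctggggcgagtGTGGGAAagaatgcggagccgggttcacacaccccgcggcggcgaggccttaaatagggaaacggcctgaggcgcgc
The motif began 85 bases before the start in HES1 and 77 bases before it in HES4. Over 250 bases before to 50 after the start, it was present in 5 of the 13 target genes with a RefSeq promoter (38.5%) and in 6.09% of the 15382 measured genes with one. Promoters of all genes that fell held it in 11 of 135 cases (8.15%), near that background, and those of genes that rose in 0 of 24. HEY2 also held it and did not pass the test. A match describes the letters of the window and shows no binding.

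HES1, the best-known Notch target, had the largest fall of all genes that passed. Its levels in Rec-1 were 5.86 and 5.67 on the Mock arrays and 2.23 and 1.70 on the GSI arrays, and in SP-49 they were 6.11 and 5.77 against 2.53 and 2.33. The GSI arrays of both lines reached the region of the median probe set, where values are dominated by background, so the fold is understated. The common change was -3.66 (95% interval -3.98 to -3.33), a 12.6-fold fall (limma, Benjamini-Hochberg adjusted p = 3.345e-06). Another HES1 probe set, of lower signal, had a common change of -1.67.

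HES4 and HEY1 fell in both lines, from a higher Mock level in Rec-1. HES4 was at 5.11 and 5.14 on the Mock arrays of Rec-1 and 2.60 and 2.70 on its GSI arrays, and at 3.25 and 2.80 against 2.15 and 2.03 in SP-49. HEY1, a related repressor, was at 7.88 and 7.77 against 5.24 and 4.53 in Rec-1, and at 3.52 and 3.54 against 2.64 and 2.52 in SP-49. In SP-49 both genes ended near background. Another HEY1 probe set, with a mean level of 3.11, changed by -3.36 in Rec-1 and by only -0.21 in SP-49. The common changes were -1.70 for HES4 (limma adjusted p = 0.02661) and -1.94 for HEY1 (0.03745), with differences between the lines (Rec-1 minus SP-49) of -1.55 and -1.99. These had adjusted p-values of 0.0573 for HES4 and 0.05759 for HEY1 and were not called.

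NRARP, a negative-feedback inhibitor of Notch, fell as well. Its levels were 5.43 and 5.44 against 4.10 and 4.0 in Rec-1, and 5.81 and 5.81 against 5.00 and 5.10 in SP-49. The groups did not overlap in either line, and the common change was -1.07, a 2.10-fold fall (limma adjusted p = 0.01161).

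Other family members did not pass. HEY2 had a common change of -0.51 (limma adjusted p = 0.2843), HES6 of 0.17 and the ligase gene DTX1 of 0.02. DTX1 was at 8.93 and 8.82 on the Mock and 8.36 and 8.39 on the GSI arrays of Rec-1, and at 7.07 and 7.14 against 7.55 and 7.75 in SP-49. The GSI arrays were thus lower in Rec-1 and higher in SP-49. The DTX1 difference of -1.05 between the lines was not called either (adjusted p = 0.08757).

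None of 9 Notch receptors and ligands, 7 gamma-secretase and ADAM genes or 18 genes of the nuclear complex passed. Their median changes were -0.01, 0.07 and -0.05, and 1, 0 and 2 of them had an unadjusted limma p under 0.05, against 14.9% of all genes. NOTCH1 had a common change of -0.05 (95% interval -0.29 to 0.20) and NOTCH2 of 0.20 (-0.01 to 0.41). NOTCH3, itself a Notch target in other cells, had a common change of -0.56 with a limma adjusted p of 0.141.

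MYC fell by nearly the same amount in both lines. In Rec-1 its levels were 8.32 and 8.38 on the Mock arrays and 7.12 and 6.52 on the GSI arrays, and in SP-49 7.33 and 7.31 against 5.79 and 5.75. All GSI arrays stayed well above the median probe set. The common change was -1.54 (95% interval -1.83 to -1.26), a 2.91-fold fall (limma adjusted p = 0.001581). The changes of the lines differed by 0.02, with an interval of -0.58 to 0.62. Of the other 12 measured genes of the MYC network, which encode MYC's partners and antagonists, none passed.

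A list of B-cell genes linked to Notch, for surface receptors and intracellular proteins, also held large falls. Of its 16 genes 6 fell (37.5%, against 0.814% of all genes) and none rose: FCRL4, CR2, CD300A, FYN, CDK5R1 and NEDD9, the last named for completeness after its values were seen. The median change of the list was -0.53, and 3 of the 16 were called without both second GSI arrays and 4 to 6 without 1 array. CR2 stands in this list and among the Notch targets.

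FCRL4, an inhibitory Fc receptor-like protein of memory B cells, went from 5.69 and 5.51 to 2.26 and 2.39 in Rec-1 and from 6.39 and 6.53 to 3.12 and 3.37 in SP-49. Its common change was -3.25 (95% interval -3.47 to -3.02), a 9.49-fold fall with the smallest adjusted p of all genes (limma, 6.614e-07). Its 2 further probe sets had common changes of -3.35 and -2.81. The changes of the lines differed by -0.06, with an interval of -0.53 to 0.40.

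CR2, the complement receptor CD21, went from 5.63 and 5.67 to 2.74 and 2.29 in Rec-1 and from 5.06 and 4.83 to 2.28 and 2.11 in SP-49. Both lines ended near background, and the common change was -2.95, a 7.70-fold fall (limma adjusted p = 8.232e-06). CD300A, an inhibitory receptor of leukocytes, went from 8.62 and 8.64 to 7.03 and 7.15 in Rec-1 and from 5.00 and 5.07 to 2.34 and 2.87 in SP-49. In Rec-1 it stayed high and in SP-49 it came close to background. The common change was -1.99, a 3.96-fold fall (limma adjusted p = 0.003735).

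FYN, a SRC-family tyrosine kinase, had a smaller fall with little spread. Its levels were 8.61 and 8.66 against 7.69 and 7.73 in Rec-1 and 8.10 and 8.01 against 7.31 and 7.20 in SP-49. The common change was -0.86, a 1.82-fold fall (limma adjusted p = 0.006018), and its other probe sets with a mean level above 2 had common changes of -1.21, -1.46 and -0.42.

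**Figure D2:**
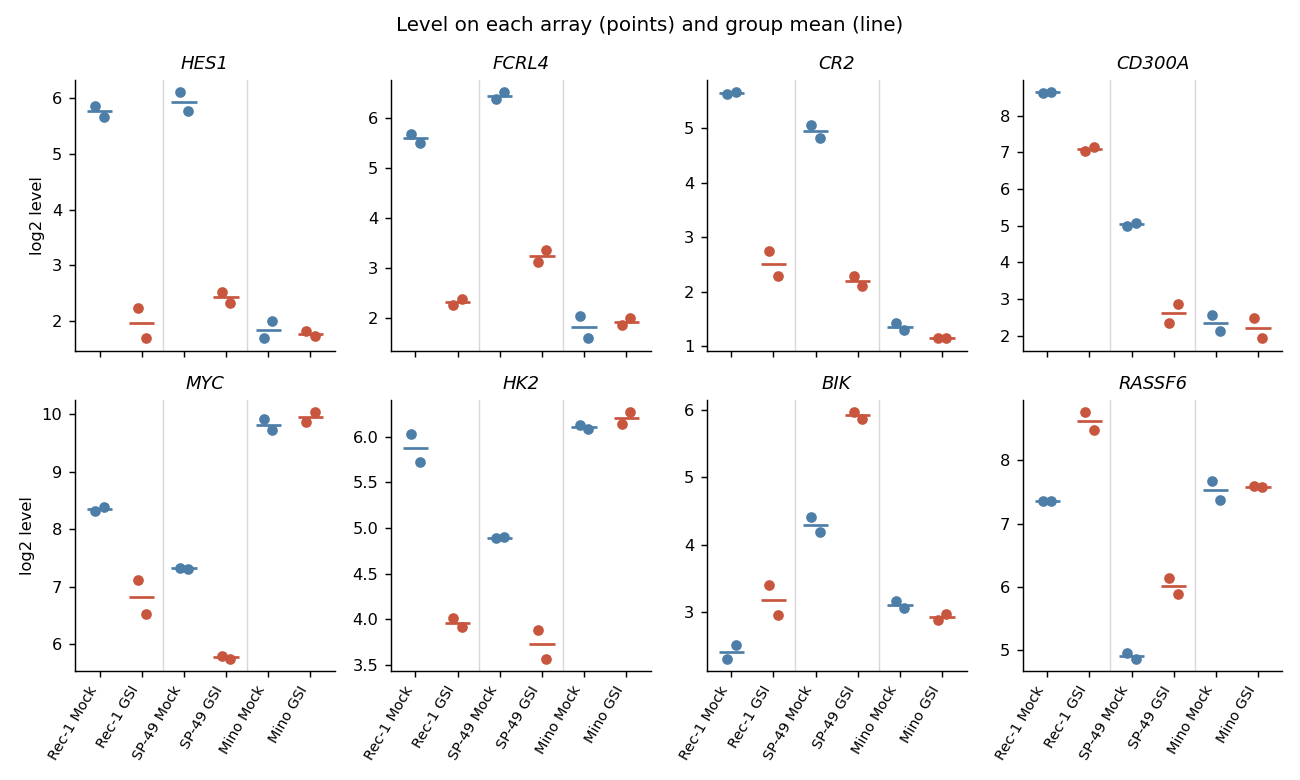
Log2 level of 8 genes on each array (points) with the group mean (line), for Mock in blue and GSI in red in Rec-1, SP-49 and Mino. In Rec-1 and SP-49 the GSI points of HES1, FCRL4, CR2, CD300A, MYC and HK2 lie below the Mock points and those of BIK and RASSF6 above them; in Mino the MYC points lie between 9.72 and 10.04 in both groups.

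Of 46 measured ribosome biogenesis genes 16 fell, 34.8% against 0.814% of all genes, and none rose. The median change was -0.64, with -0.92 in Rec-1 and -0.38 in SP-49, and 44 of the 46 were lower in both lines, against 29.2% of all genes. The calls of this list depended on single arrays and its median less so: 0 to 20 genes passed when 1 array was left out, 0 without the first Mock array of Rec-1 and 0 without both second GSI arrays. The median change ran from -0.71 to -0.54 when 1 array was left out and was -0.56 without both second GSI arrays. At an unadjusted limma p under 0.05, 41 of its 46 genes were lower without the first Mock array of Rec-1. Without both second GSI arrays 42 were. Those fits held 2120 and 2387 of all 19775 genes at such a p, in either direction.

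The members act at successive steps of assembly. WDR43, a component of the small-subunit processome, was at 6.41 and 6.28 on the Mock and 5.24 and 4.89 on the GSI arrays of Rec-1, and at 6.04 and 6.10 against 5.40 and 5.15 in SP-49. BYSL, needed for the small subunit, was at 7.14 and 7.04 against 5.70 and 5.70 in Rec-1 and at 6.74 and 6.87 against 6.29 and 6.11 in SP-49. NLE1, which acts in maturation of the large subunit, was at 6.26 and 6.64 against 5.16 and 5.44, and at 4.53 and 4.64 against 3.93 and 3.87. No GSI array of these genes overlapped a Mock array of the same line. Their common changes were -1.04, -1.0 and -0.92 (limma adjusted p = 0.01646, 0.02423 and 0.02009). NOLC1, a nucleolar phosphoprotein, changed by -0.73 (adjusted p = 0.0219).

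RNA polymerases I and III transcribe ribosomal RNA and transfer RNA. Of 32 measured genes of this machinery 4 fell (12.5%, against 0.814% of all genes) and none rose, with a median change of -0.41. POLR1A, the largest subunit of polymerase I, was at 4.92 and 4.41 on the Mock and 3.51 and 3.35 on the GSI arrays of Rec-1, and at 4.17 and 4.29 against 3.53 and 3.79 in SP-49, a common change of -0.90 (limma adjusted p = 0.04171). POLR1G changed by -0.95, TAF1D by -0.67 and POLR3A, the largest subunit of polymerase III, by -0.58. POLR1A and TAF1D are also members of the ribosome biogenesis list.

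The E-box CACGTG, a palindrome that MYC and other factors can bind, was searched in the same promoter windows. It was present in 15 of 40 ribosome biogenesis promoters (37.5%), in 30 of 135 promoters of genes that fell (22.2%), in 1 of 24 of genes that rose (4.17%) and in 8.90% of those of all measured genes. These shares are descriptions without a test. For WDR43, NLE1, BYSL and BCAT1 it lay after the start site. The 150 bases before the start are printed for 4 genes that fell and hold it there, on the gene's strand with the E-box in capitals: POLR1G (chr19:45406494-45406643, plus strand), POLR3A (chr10:78029516-78029665, minus), TASP1 (chr20:13638933-13639082, minus) and CR2 (chr1:207454178-207454327, plus), all from RefSeq in GRCh38.p14.
POLR1G: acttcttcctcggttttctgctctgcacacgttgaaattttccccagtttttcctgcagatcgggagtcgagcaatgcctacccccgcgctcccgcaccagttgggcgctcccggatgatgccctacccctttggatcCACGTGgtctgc
POLR3A: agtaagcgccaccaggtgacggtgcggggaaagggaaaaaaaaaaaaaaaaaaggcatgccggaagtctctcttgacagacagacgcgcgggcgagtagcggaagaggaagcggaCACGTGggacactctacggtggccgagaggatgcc
TASP1: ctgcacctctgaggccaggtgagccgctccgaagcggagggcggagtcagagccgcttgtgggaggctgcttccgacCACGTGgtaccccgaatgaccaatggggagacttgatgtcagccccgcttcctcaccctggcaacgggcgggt
CR2: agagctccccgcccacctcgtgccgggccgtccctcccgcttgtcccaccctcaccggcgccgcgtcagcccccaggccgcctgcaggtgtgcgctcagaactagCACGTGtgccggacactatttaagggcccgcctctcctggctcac
The E-box began 12 bases before the start in POLR1G, 35 in POLR3A, 73 in TASP1 and 45 in CR2. The sequences around it differ, and the genes belong to different groups: 2 polymerase subunits, the protease taspase 1 and the complement receptor.

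Ribosomal protein genes were read by compartment. None of 32 measured cytosolic ribosomal protein genes, of 47 in the list, passed the limma test or had an unadjusted p under 0.05, and their median change was -0.05. Of 58 mitochondrial ribosomal protein genes 2 fell (3.45%, against 0.814% of all genes), MRPL3 by 0.60 and MRPS12 by 0.72 on the log2 scale. The median change was -0.32, and 52 of the 58 were lower in both lines, against 29.2% of all genes. The difference between these lists was not tested. Of 32 aminoacyl-tRNA synthetase genes, which load transfer RNAs with amino acids, 4 fell (YARS1, FARSA, FARSB and IARS1, by 0.60, 0.75, 0.56 and 0.55; 12.5%, against 0.814% of all genes), the median change was -0.34, and 31 of the 32 were lower in both lines.

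Nucleotide synthesis and amino acid supply also held falls. Of 27 genes of nucleotide and one-carbon synthesis 5 fell (18.5%, against 0.814% of all genes) and none rose, with a median change of -0.41. NME1, a nucleoside diphosphate kinase, was at 9.76 and 9.80 on the Mock and 8.92 and 8.95 on the GSI arrays of Rec-1, and at 9.25 and 9.19 against 8.61 and 8.48 in SP-49. Its common change was -0.76 (limma adjusted p = 0.01161). CTPS1, which makes CTP, changed by -0.62, IMPDH2, of guanine nucleotide synthesis, by -0.62, and the purine synthesis genes GART and PAICS by -0.66 and -0.50.

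BCAT1, the cytosolic transaminase of branched-chain amino acids, was the 1 of 19 genes of amino acid supply that passed (5.26%, against 0.971% of all genes). Its levels were 8.73 and 8.66 against 7.40 and 7.24 in Rec-1, and 7.05 and 7.07 against 6.20 and 6.12 in SP-49. The common change was -1.13, a 2.20-fold fall (limma adjusted p = 0.006018), and its other 3 probe sets had changes of -1.20, -1.35 and -0.96. ODC1, the first enzyme of polyamine synthesis, was the 1 of 15 polyamine genes that passed (6.67%, against 0.971% of all genes). Its common change was -0.57 (limma adjusted p = 0.02904).

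Of 30 glycolysis and hypoxia genes 3 fell (10.0%, against 0.814% of all genes) and none rose, with a median change of -0.23. HK2, a hexokinase of the first step of glycolysis, was at 6.03 and 5.72 on the Mock and 4.01 and 3.91 on the GSI arrays of Rec-1, and at 4.89 and 4.90 against 3.88 and 3.57 in SP-49. Its common change was -1.54, a 2.91-fold fall (limma adjusted p = 0.006018). Its 2 further probe sets disagreed: one with a mean level of 4.30 had a change of -0.03 and one of 3.72 had a change of -0.74. PFKM, a phosphofructokinase, changed by -0.94 and ENO1, enolase, by -0.51. Of 25 heat shock and chaperonin genes 2 fell (8.0%, against 0.814% of all genes), CCT5 by 0.60 and BAG2 by 0.77, and the median change was -0.35. When 1 array was left out, the falls called in these metabolic lists ranged from 0 to 4 for polymerases I and III, mitochondrial ribosomal proteins and synthetases, 0 to 3 for nucleotide synthesis and for heat shock genes, and 1 to 4 for glycolysis. The median changes then ran from -0.46 to -0.32 for the polymerases, -0.45 to -0.30 for nucleotide synthesis and -0.39 to -0.27 for the synthetases. Without both second GSI arrays limma called 0 genes in each of these 6 lists, with median changes of -0.30 for the polymerases, -0.25 for mitochondrial ribosomal proteins, -0.29 for nucleotide synthesis, -0.30 for the synthetases, -0.16 for glycolysis and -0.33 for heat shock genes. At an unadjusted p under 0.05 that fit held 16 of 32, 26 of 58, 12 of 27, 16 of 32, 8 of 30 and 14 of 25 genes of these lists as lower. Of all 19775 genes it held 2387 at such a p, in either direction.

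**Figure D3:**
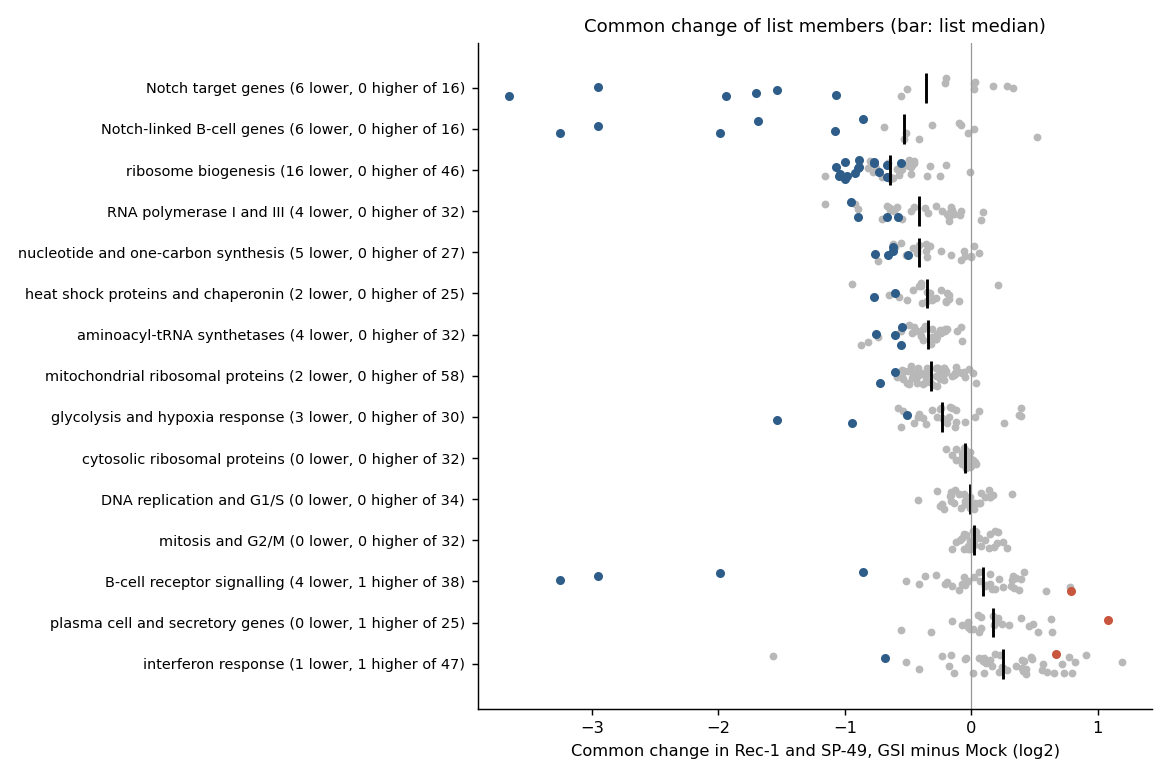
Common change of each measured member of 15 gene lists (points, log2, GSI minus Mock), with the list median as a black bar and the counts of falls and rises beside each name. Blue points passed the test as lower, red points as higher, and grey points did not pass; the ribosome biogenesis points lie between -1.16 and -0.01, while the cytosolic ribosomal protein points lie between -0.20 and 0.04.

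Genes of cell division did not pass. None of 34 genes of DNA replication and G1/S, 32 of mitosis and 20 cyclins and inhibitors was called by limma (2, 1 and 8 at an unadjusted p under 0.05), with median changes of -0.01, 0.02 and 0.14 and ranges of -0.42 to 0.32, -0.15 to 0.28 and -0.38 to 0.55. Limma also called none of 23 genes of cholesterol and fatty acid synthesis (median change 0.10), 15 of MHC class II (0.02), 5 CD1 genes (0.23) and 32 of NF-kB (0.05). In the same fit 6, 2, 0 and 3 of them had an unadjusted p under 0.05, against 14.9% of all genes.

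Several large falls belonged to none of these metabolic lists. P2RY2, a receptor for extracellular ATP and UTP, went from 5.36 and 4.71 to 2.30 and 2.52 in Rec-1 and from 3.68 and 3.60 to 2.36 and 2.12 in SP-49, a common change of -2.01 (limma adjusted p = 0.01161). PUS7, a pseudouridine synthase, changed by -1.58, KAZN by -1.57, the zinc transporter gene SLC39A14 by -1.37 and TASP1 by -1.33. Further KAZN probe sets disagreed, with common changes of -0.88, -0.27 and 0.32 at mean levels of 4.04, 3.18 and 2.13. ITGA4, the integrin alpha 4 subunit used in homing, went from 6.24 and 6.09 to 5.37 and 5.38 in Rec-1 and from 7.51 and 7.38 to 6.71 and 6.89 in SP-49. Its common change was -0.72 (adjusted p = 0.01949). Of 39 trafficking and chemokine receptor genes P2RY2 and ITGA4 fell (5.13%, against 0.814% of all genes) and CD37 rose (2.56%, against 0.157%). The list's median change was 0.07, and without both second GSI arrays none of its genes was called by limma. At an unadjusted p under 0.05 that fit held 13 of the 39, against 2387 of all 19775 genes. TNFRSF1B, a TNF receptor, was the 1 of 28 cytokine and TNF receptor genes that passed (3.57%, against 0.971% of all genes), with a change of -0.75.

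The ID genes, which encode inhibitors of basic helix-loop-helix factors, moved in opposite directions. ID1 was at 3.61 and 2.78 on the Mock and 2.03 and 2.35 on the GSI arrays of Rec-1, and at 6.44 and 6.72 against 5.25 and 4.66 in SP-49, a common change of -1.31 (limma adjusted p = 0.02904). ID3 was at 6.19 and 6.01 against 7.09 and 6.90, and at 6.86 and 7.04 against 7.59 and 7.56, a common change of 0.76 (adjusted p = 0.01949). They were the only 2 of 27 B-lineage transcription factor genes that passed, 3.7% lower and 3.7% higher against 0.814% and 0.157% of all genes.

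Among the 31 rises, BIK and RASSF6 were largest. BIK, a BH3-only gene of the BCL2 family that promotes cell death, went from 2.31 and 2.51 to 3.40 and 2.95 in Rec-1 and from 4.41 and 4.19 to 5.97 and 5.87 in SP-49. Its common change was 1.19, a 2.29-fold rise (limma adjusted p = 0.02356), and none of the other 18 measured BCL2 family genes passed. Calls thus made up 5.26% of this list, against 0.971% of all genes. Without both second GSI arrays none of this list was called. At an unadjusted limma p under 0.05 that fit held 3 of its 19 genes, against 2387 of all 19775 genes. RASSF6, a RAS-association domain gene, went from 7.36 and 7.36 to 8.76 and 8.48 in Rec-1 and from 4.95 and 4.87 to 6.14 and 5.89 in SP-49. Its common change was 1.18, a 2.27-fold rise (limma adjusted p = 0.002603). Its 2 further probe sets had common changes of 0.93 and 0.76, mainly from Rec-1. They changed by 1.45 and 1.40 in Rec-1 and by 0.42 and 0.13 in SP-49.

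Genes of the B-cell surface and secretory state also rose singly. CD79B, a signalling chain of the B-cell receptor, went from 8.81 and 8.79 to 9.91 and 9.81 in Rec-1 and from 8.08 and 7.98 to 8.55 and 8.55 in SP-49. It was the 1 of 38 receptor-signalling genes that rose (2.63%, against 0.157% of all genes), with a common change of 0.79 (limma adjusted p = 0.02423). Falls in this list numbered 4 (10.5%, against 0.814%): FCRL4, CR2, CD300A and FYN. The 2 other CD79B probe sets, both below the median of all probe sets, had changes of 0.11 and 0.07. JCHAIN, the joining chain of secreted antibodies, went from 4.81 and 4.69 to 6.22 and 6.40 in Rec-1 and from 2.11 and 1.61 to 2.61 and 2.31 in SP-49, where it stayed near background. It was the 1 of 25 plasma cell genes called (4.0%, against 0.971% of all genes), with a common change of 1.08 (limma adjusted p = 0.04317).

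The surface proteins CD52 and CD37 changed by 0.82 and 0.70, and LAPTM5, a lysosomal protein of blood cells, by 0.92. TBC1D10C changed by 1.15, CRYM by 1.03, FAM43A by 1.02, NLRP7 by 0.99 and the potassium channel gene KCNH2 by 0.94. FAM117A changed by 0.83, and CST3 and MAN1A1 by 0.79 each. BTG1, an anti-proliferative gene, was the 1 of 32 immediate-early genes that passed (3.12%, against 0.971% of all genes), with a change of 0.67.

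Further probe sets for the same genes gave a second readout from the same RNA. The genes that fell had 122 other probe sets above the median level, of which 111 also fell in direction, with a median change of -0.56. Those of the rises numbered 21, of which 20 were higher, with a median change of 0.56. Probe sets below the median level held little signal: the 70 for genes that fell had a median change of -0.05.

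Mino, given the same inhibitor for the same time but grown in 15% serum in place of 10%, did not show the shared changes as a group. Line and serum cannot be told apart in any comparison with Mino. The median Mino change was 0.02 over the 161 falls (range -0.43 to 0.78) and 0.00 over the 31 rises (-0.61 to 0.28). Of the 161 genes 77 were lower in Mino (47.8%, against 50.8% of all genes), and 25 had both GSI arrays below both Mock arrays (15.5%, against 17.0%). Of the 31 rises 7 had both GSI arrays above both Mock arrays in Mino (22.6%, against 16.2%).

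**Figure D4:**
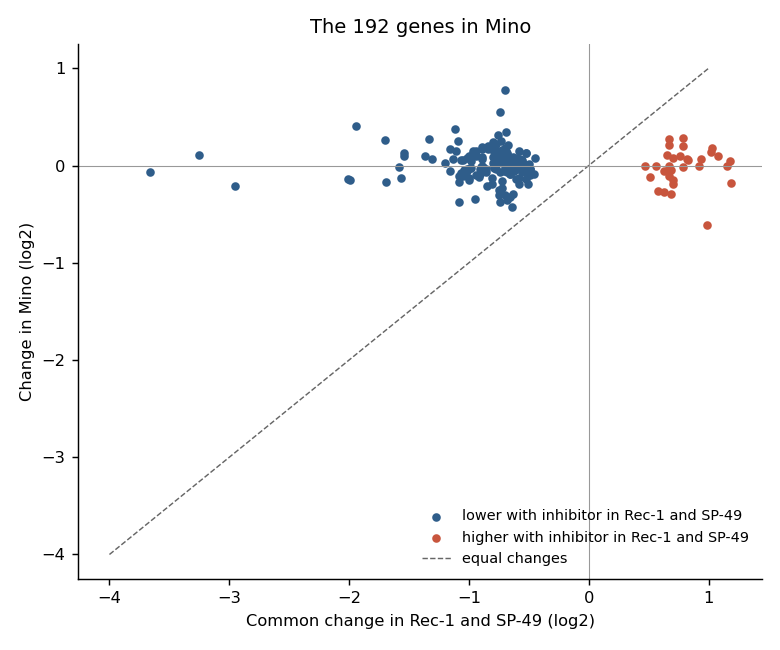
Change of the 192 genes in Mino (vertical axis, log2) against their common change in Rec-1 and SP-49 (horizontal axis, log2), with falls in blue, rises in red and equal changes as a dashed line. The Mino values lie between -0.61 and 0.78 while the common changes run from -3.66 to 1.19.

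A test of the difference itself, the mean change of Rec-1 and SP-49 minus the change of Mino, called 30 genes (0.152%, limma), 24 lower (0.121%) and 6 higher (0.0303%). Of these 25 were among the 192 genes. When 1 array was left out the count fell as low as 3, without the second Mock or the first GSI array of Mino, and rose to 226 without the first GSI array of Rec-1. It was 11 and 17 without the Mock arrays of Rec-1, 5 and 9 without those of SP-49, 18 without the second GSI array of SP-49, and 14 and 9 without the first Mock and the second GSI array of Mino. HES1 was at 1.69 and 2.0 on the Mock and 1.82 and 1.73 on the GSI arrays of Mino, near background before treatment, and the difference was -3.59 (adjusted p = 8.707e-05). FCRL4 and CR2 were also near or below the median probe set in Mino Mock cells, at 2.05 and 1.59 and at 1.42 and 1.29. The Mino Mock arrays of HEY1 (2.50 and 2.28), HES4 (2.24 and 1.80), CD300A (2.57 and 2.13) and CDK5R1 (2.17 and 2.18) were also close to that median. For all 7 genes a fall in Mino had little room above background and would be understated, so the difference from Mino is one of measured changes only.

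MYC, HK2 and BCAT1 were well above background in Mino on both Mock and GSI arrays. MYC was at 9.92 and 9.72 on the Mock and 9.86 and 10.04 on the GSI arrays, and the difference from the other lines was -1.68 (limma adjusted p = 0.01395). HK2 was at 6.13 and 6.09 against 6.14 and 6.27, a difference of -1.64 (adjusted p = 0.006687), and BCAT1 at 9.39 and 9.23 against 9.37 and 9.38, a difference of -1.20 (0.01159). RASSF6 was at 7.68 and 7.38 against 7.59 and 7.57, a difference of 1.13 (0.0419). The ribosome biogenesis list had a median change of 0.03 in Mino. In the test of the difference 1 of its 46 genes, NOP16, was called as lower than in Mino (-1.03), against 24 of all 19775 genes (0.121%). The count of 1 covers the list only, and genes for ribosome assembly that stand outside the list are not in it.

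Rec-1 and SP-49 did not share every change. The test of the difference between the lines called 30 genes (0.152%, limma), 24 with the more positive change in Rec-1 (0.121%) and 6 in SP-49 (0.0303%). CDK5R1, the activator of the kinase CDK5, was the 1 of these among the 192. It went from 2.76 and 2.89 to 2.21 and 1.97 in Rec-1 and from 4.93 and 4.72 to 2.36 and 2.0 in SP-49, so that both lines ended near background. Its change was more negative in SP-49 by 1.91 (adjusted p = 0.04324). A gene whose change differs between the lines has more residual spread in a fit with a single effect: with 4 group means, which removes it, 609 genes passed, 442 lower (2.24%) and 167 higher (0.845%), including all 192.

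Of 47 measured interferon-response genes 1 fell and 1 rose in the common test (2.13% each, against 0.814% and 0.157% of all genes). These were CXCL9, lower by 0.68 from a level near background, and ISG20, higher by 0.67. In the test of the difference between the lines 8 of the 47 were called, against 0.152% of all genes. The list's median change was 0.60 in Rec-1, -0.13 in SP-49 and 0.04 in Mino. IFIT3 was at 3.35 and 2.82 on the Mock and 4.92 and 4.58 on the GSI arrays of Rec-1, and at 6.36 and 6.29 against 5.53 and 5.39 in SP-49, a difference between the changes of 2.53 (limma adjusted p = 0.037). IRF9, a subunit of the interferon-activated factor ISGF3, changed by 1.24 in Rec-1 and -0.11 in SP-49. The remaining 6 were MX1, ISG15, IFITM1, IFI44L, PARP9 and IRF7.

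CD1C, which presents lipid antigens, went from 6.49 and 6.28 to 8.45 and 8.50 in Rec-1 and from 5.76 and 5.88 to 5.16 and 4.37 in SP-49. Its changes differed by 3.14 (limma adjusted p = 0.037), the largest difference among the 30 genes. RNASE6 went from 2.79 and 2.97 to 5.20 and 5.21 in Rec-1 and was at 5.02 and 4.97 against 5.22 and 4.32 in SP-49. In the other direction SLC29A1, a nucleoside transporter, went from 6.84 and 7.13 to 5.06 and 5.22 in Rec-1 and was at 4.55 and 4.56 against 4.46 and 4.19 in SP-49 (difference -1.61, adjusted p = 0.04723). These calls depended on single arrays. By limma 0 genes passed when any of the 4 Mock arrays or the second GSI array of SP-49 was left out (1353 to 1729 at an unadjusted p under 0.05), 2 without the first GSI array of SP-49, and 98 and 69 without the first and second GSI array of Rec-1.

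**Figure D5:**
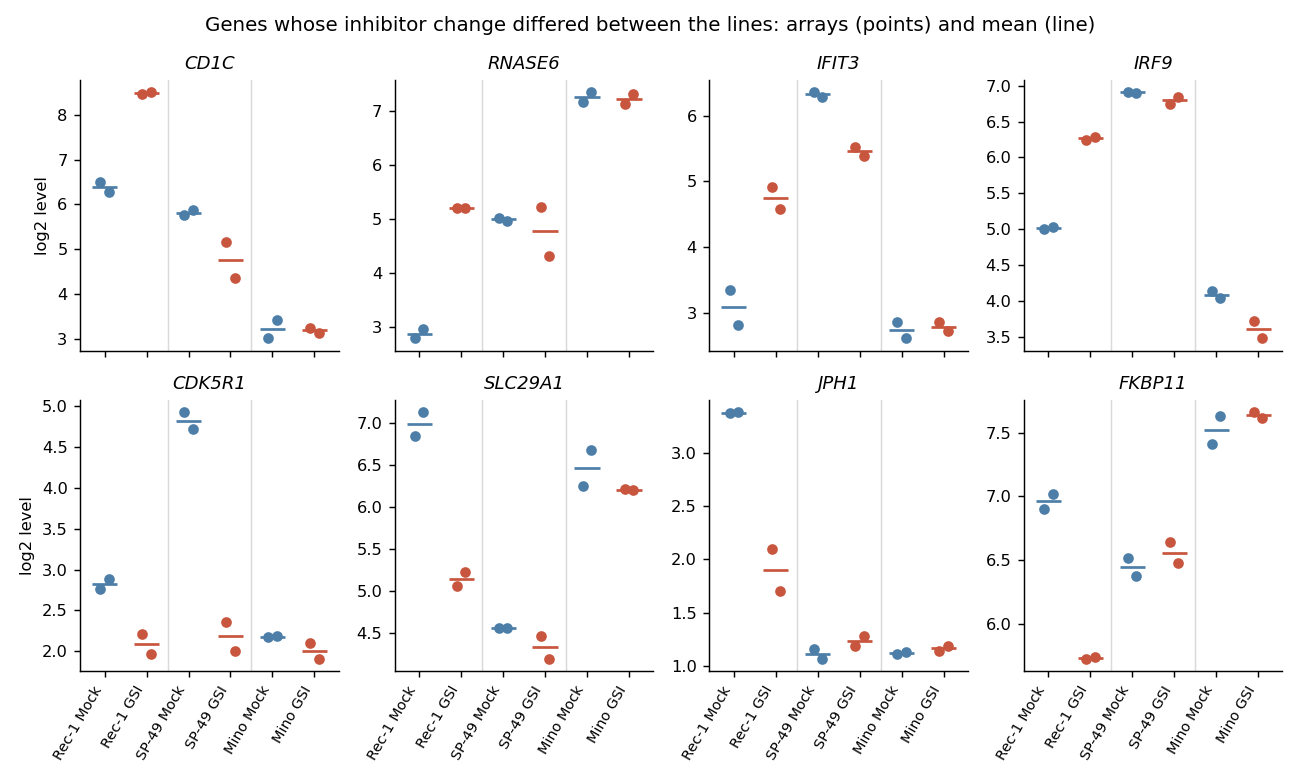
Log2 level on each array (points) and group mean (line) of 8 genes whose inhibitor change differed between Rec-1 and SP-49, with Mock in blue and GSI in red. CD1C, RNASE6, IFIT3 and IRF9 have both GSI points above both Mock points in Rec-1 and not in SP-49, CDK5R1 has its larger fall in SP-49 and SLC29A1 in Rec-1, and JPH1 and FKBP11 are lower with GSI in Rec-1 and have changes of 0.12 and 0.11 in SP-49.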

How the data were processed

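Expression was read on 12 Affymetrix arrays, 2 for each of Mino, Rec-1 and SP-49 with Mock or GSI. The authors deposited log2 values, made with RMA and limma per the submitters' processing notes, which give no versions. The base, 2, was taken from the range of the values, 0.58 to 12.78. No background correction or normalization was added. Of 54675 probe sets, 41097 named 1 gene, 1801 several and 11777 none by the platform annotation. For 41043 the symbol was looked up by gene number. Each of 19775 genes was represented by the probe set naming it alone with the highest mean over the 12 arrays, and 10523 genes had several. No filter on low values was used.

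The common GSI effect was tested with limma 3.58.1 in R 4.3.3 on 8 arrays, as a line term and a GSI term (5 residual degrees of freedom), with moderated two-sided tests, Benjamini-Hochberg adjustment over all genes and a threshold of 0.05. The line difference used 4 group means on the same arrays, and the contrast with Mino 6 group means on all 12. An exact permutation within lines could not go below p = 0.0556 and was not used for single genes. The fit was tested on simulated data with 19775 genes, with 6 false calls and 0 sign errors. The number of arrays limits the precision: the median standard error was 0.12 for the common effect and 0.225 for the line difference.

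The members and gene lists were chosen with earlier results of these data known, so no list is independent evidence of its direction. Genes named were the canonical Notch genes, the 15 largest rises and falls, up to 4 called genes of each list with the smallest adjusted p, and the 5 largest differences each way between the lines and from Mino. Beyond that rule, NEDD9, IMPDH2, NOP16, CD5, CDH1, 6 of the interferon genes and the mitochondrial genes of the last section were named after their values were seen. Promoters, 250 bases before to 50 after the start, were those of RefSeq in GRCh38.p14, which matched 15382 genes. Alternatives covered the probe set rule, filtering, scaling, variance prior, array weights, a minimum fold, the model, a replicate block and leaving out arrays.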

Additional observations from a re-analysis of the deposited data

Results flagged for a closer look

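The results here were picked out because the GSI effect differed between cell lines by a test of the difference itself (limma, adjusted p under 0.05). They are given as values, and no cause was tested.

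In a first set of genes the mean change of Rec-1 and SP-49 differed from the change of Mino. The Notch targets differed by -3.59 for HES1, -2.36 for HEY1, -1.97 for HES4, -1.68 for MYC and -1.13 for NRARP. The B-cell surface genes FCRL4, CR2 and CD300A differed by -3.36, -2.73 and -1.84. HES1, HEY1, HES4, FCRL4, CR2, CD300A and CDK5R1 were near or below the median probe set in Mino Mock cells, so a fall there would be understated. CDK5R1, KAZN, TASP1, HK2 and BCAT1 differed by -1.52, -1.43, -1.60, -1.64 and -1.20. In the other direction, BIK differed by 1.37, RASSF6 by 1.13, TBC1D10C by 1.15, MTSS1 by 1.44 and IRF9 by 1.05. MTSS1 and IRF9 were not called in the common effect, since their changes were 2.41 and 1.24 in Rec-1 and 0.50 and -0.11 in SP-49.

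Between Rec-1 and SP-49, the change was more positive in Rec-1 by 3.14 for CD1C, 2.55 for RNASE6, 2.53 for IFIT3, 2.35 for DTNB-AS1 and 2.21 for MPEG1. CDK5R1 and MTSS1 each differed by 1.91 and IRF9 by 1.35 in the same direction. It was more negative in Rec-1 for KCNJ16 (-1.76), SLC29A1 (-1.61), JPH1 (-1.60), LOC105373383 (-1.38) and FKBP11 (-1.33). KCNJ16 and JPH1 were at or below 1.47 on every SP-49 array, below the median probe set, so a fall there would be understated.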

How the results depend on the processing

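All 62 genes that were named by the rule given above and passed kept their direction under every alternative run. Genes named beyond that rule are not in this count. Of the 1240 combinations of these 62 genes with an alternative, 722 stayed past the threshold and 518 did not. The sign of 2 genes that did not pass turned. DTX1 (0.02) was -0.03 without both second GSI arrays and ranged from -0.12 to 0.15 without 1 array, and NOTCH1 (-0.05) was 0.03 as the mean of its probe sets, 0.05 after a further quantile normalization and ranged from -0.10 to 0.01 without 1 array. The count of 192 for the common effect was 610 with an intensity trend and robust prior, 609 with 4 group means, 947 with 6 group means on all 12 arrays, 5 with a minimum change of 1.5-fold, 15 without both second GSI arrays, and 10 to 261 without 1 array. The 30 line differences became 3 with every probe set tested, 11 without dim genes, 48 after quantile normalization, 262 with the trend, 110 on 12 arrays, 0 with the 1.5-fold minimum (218 at an unadjusted limma p under 0.05), 0 without both second GSI arrays (2305) and 0 to 98 without 1 array. The 30 differences from Mino became 64 with the mean of probe sets, 330 with the trend, 4 with the minimum fold and 3 to 226 without 1 array. The causes were not tested.

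With the replicate number as a block in each line, limma called 15 common changes, 0 line differences (smallest adjusted p 0.101, 2049 genes at an unadjusted p under 0.05) and 9 differences from Mino. The deviations of same-numbered Mock and GSI arrays correlated over genes at 0.0941 in Rec-1, -0.0107 in SP-49 and 0.0457 in Mino. These correlations cannot show whether same-numbered arrays were handled together. The labels do not say what the replicate numbers mark, and the block was not used in the main test. With 2 arrays per group, changes under 1 on the log2 scale were often missed, and falls that end near background are understated.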

Other observations

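Some of the 161 falls in none of the gene lists encode mitochondrial proteins. They were picked after their values were seen and are given as single genes: related genes that did not fall were not counted, so nothing is said of such genes as a group, and 0.814% of all genes fell. Among them were GRPEL1, a co-chaperone of the import motor (common change -0.79), CHCHD4, which drives oxidative folding in the intermembrane space (-0.72), and TIMM9, a small import chaperone (-0.58). The complex I assembly factors NDUFAF4 and NDUFAF2 changed by -0.67 and -0.63, and SCO1, which delivers copper to cytochrome oxidase, by -0.52. TWNK, the helicase of mitochondrial DNA, changed by -0.89, TFB1M, a methyltransferase of mitochondrial ribosomal RNA, by -0.51, SLIRP, which binds mitochondrial messenger RNA, by -0.51, and the ribosome recycling factor MRRF by -0.56. The matrix protein C1QBP, the chaperone TRAP1 and prohibitin PHB1 changed by -0.73, -0.69 and -0.67. In Mino the changes of these genes ran from -0.19 (TFB1M) to 0.15 (TIMM9). The largest of these changes in Rec-1 was that of TWNK, -1.10 against -0.69 in SP-49.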
